A study of Mus musculus with 15 samples.

Results

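Fbxo32, Trim63, Trim54, Trim55, Foxo1, Foxo3 and Mstn are 7 mouse genes of the muscle atrophy programme: 4 ubiquitin ligase genes of striated muscle, 2 FoxO transcription factors and myostatin. They were taken by gene symbol, with earlier results of these data known, and each symbol matched 1 of the 36653 gene identifiers in the table. The hearts came from wild-type C57BL/6 mice aged 10 weeks, and RNA was made from the ventricle. Vehicle mice were given saline. AngII mice had a pump under the skin delivering angiotensin II, a pressor hormone, at 1000 ng/kg/min. Mice of the third group (AngII plus OA) had that pump too, at an equal dose, and received OA, which the series title spells out as oleic acid, daily at 160 mg/kg (0.3 mL for each mouse). Each group had 5 libraries, described by the labels as biological replicates. The labels do not give the time on the pump.

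Muscle breaks down its own proteins mainly through the ubiquitin-proteasome system and autophagy. Fbxo32 encodes atrogin-1, the substrate-binding F-box subunit of an SCF-type ubiquitin ligase. Trim63, Trim55 and Trim54 encode the RING-finger proteins MuRF1, MuRF2 and MuRF3, which sit on the sarcomere and microtubules of muscle cells. FoxO factors are held out of the nucleus by insulin and Akt signalling, and once in the nucleus they switch on Fbxo32, Trim63 and autophagy genes. Myostatin is a secreted TGF-beta family member that limits muscle growth through activin receptors and Smad proteins. In the heart these ligases are known for restraining hypertrophy and for turning over sarcomere proteins.

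The reference promoters are shown because Trim63 is a textbook FoxO target and because Fbxo32 varied with Trim63 and with Foxo3 over the libraries, as described later. RefSeq promoters (assembly GRCm38.p6, 250 bases before to 50 bases after the start) were found for 5 of the 7 genes. None was found for Fbxo32 or Trim55, so the motifs were not searched in them. The letters GTAAACA, a core FoxO recognition motif, were searched on both strands, and so was the E-box CAGCTG, which reads the same on both. The E-box was added after the promoters had been seen. Capitals mark the matches. The sequences are printed 5′ to 3′ on the strand of the gene.
Trim63, chr4:134314870-134315169, plus strand: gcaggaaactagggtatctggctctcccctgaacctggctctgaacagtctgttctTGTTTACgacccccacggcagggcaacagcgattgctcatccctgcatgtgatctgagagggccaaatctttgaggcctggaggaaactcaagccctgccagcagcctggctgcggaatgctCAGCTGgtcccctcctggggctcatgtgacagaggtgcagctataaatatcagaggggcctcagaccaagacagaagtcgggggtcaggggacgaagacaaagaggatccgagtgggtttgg
Trim54, chr5:31116362-31116661, plus strand: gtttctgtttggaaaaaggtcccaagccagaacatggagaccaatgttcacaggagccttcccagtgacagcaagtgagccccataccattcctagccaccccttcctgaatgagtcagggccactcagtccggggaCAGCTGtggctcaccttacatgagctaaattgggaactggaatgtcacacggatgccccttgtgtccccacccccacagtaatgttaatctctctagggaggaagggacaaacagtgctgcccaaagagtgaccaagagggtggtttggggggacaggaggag

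The FoxO letters stood in the Trim63 promoter, on its reverse strand as TGTTTAC, beginning 194 bases before the start. They were not in the windows of Trim54, Foxo1, Foxo3 or Mstn. Of all 32851 RefSeq promoters of this length, 3.65% held them. The E-box stood 72 bases before the start of Trim63 and 113 bases before that of Trim54, and 16.3% of all promoters held it. A match describes the letters only and shows no binding.

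The totals behind the values of the 15 libraries, inferred from those values and reference gene lengths, were 24.5 to 28.3 M (mega) reads. In each library 10990 to 11528 genes reached 1 FPKM (fragments per kilobase of gene and M fragments). Of the summed FPKM, genes of the mitochondrial genome held 47.1% ± 2.52 in vehicle, 41.1% ± 5.20 in AngII and 42.4% ± 3.10 in AngII plus OA (SD, n = 5). The difference of AngII from vehicle was -5.94 percentage points (exact permutation test, 2-sided, p = 0.0635, adjusted over the 3 comparisons 0.0952) and that of AngII plus OA from vehicle was -4.64 (exact permutation p = 0.0397, adjusted 0.0952). This share enters the denominator of every FPKM value. AngII replicate 2 stood apart: its 6 atrial myocyte markers summed to 3130 FPKM, against 18.0 to 763 in the other libraries, and its 8 cardiomyocyte markers to 15400 FPKM, against 25100 to 33700. For the members above the level filter used in the test and for the list medians, estimates that moved by over 1.5 times or turned in sign without this library are given both ways. Of the skeletal fibre markers, the fast myosins Myh2 and Myh4 were listed at 0 in 13 and 14 of the 15 libraries, and Myh1 reached at most 0.0362 FPKM. Others were above 0 in every library: Mylpf at 1.03 to 2.49 FPKM, Tnni2 at 0.705 to 1.53 and Tnnt3 at 0.411 to 2.95. Pvalb, at 0.0368 to 1.99 FPKM, and Atp2a1, at 0.0315 to 0.514, were too. The skeletal list summed to 62.1 to 292 FPKM, nearly all of it Ckm, a creatine kinase that the heart also makes.

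The members spanned a wide range of levels per length of gene. Averaged over the 15 libraries, Trim54 was highest at 64.5 FPKM. Trim63 followed at 47.1, Trim55 at 16.9, Fbxo32 at 14.4, Foxo3 at 7.96, Foxo1 at 2.57 and Mstn at 0.265 FPKM. Trim54 exceeded Trim63 in 13 of 15 libraries, and Trim55 exceeded Fbxo32 in 12 of 15, so neither pair was separated in every library. The other neighbours in this order kept it in 15 of 15 libraries. Behind the values stood 1581 to 5159 reads per library for Trim63, 1126 to 3503 for Trim54, 475 to 1891 for Trim55, 857 to 2576 for Foxo3, 415 to 752 for Foxo1 and 8 to 35 for Mstn. Reads of Fbxo32 did not come out whole with the reference gene length and are not given.

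The effect of angiotensin II alone on these genes is addressed by AngII against vehicle. None of the ligase, FoxO or myostatin genes passed the test. limma called 0 of the 6 members with a mean of at least 0.5 FPKM, at a Benjamini-Hochberg adjusted p under 0.05, where 1.50% of the 13121 genes tested were called (197 genes, 166 higher and 31 lower). At an unadjusted p under 0.05 it was 1 of 6 members, Foxo3, where 16.6% of all genes were. AngII and vehicle overlapped for 6 of 6 members, and 3.80% of all genes did not overlap. Differences are given on the log2(FPKM + 1) scale, which understates changes of low values.

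Foxo3, at a higher level than Foxo1, had the lowest p of the members. It stood at 8.53, 5.04, 6.80, 7.01 and 4.61 FPKM in vehicle replicates 1 to 5 and at 8.46, 13.8, 10.4, 6.04 and 11.6 FPKM in AngII replicates 1 to 5. In 3 of 5 AngII libraries, replicates 2, 3 and 5, it was above every vehicle library, while AngII replicate 4 lay among the lower vehicle values. The means were 10.1 ± 2.97 FPKM in AngII and 6.40 ± 1.59 in vehicle (log2 difference 0.56, SE 0.20, 95% interval 0.15 to 0.98; limma adjusted p = 0.156). Without AngII replicate 2 the AngII mean was 9.12 ± 2.42 FPKM (SD, n = 4) and the log2 difference 0.45 (limma adjusted p = 0.232). Foxo1, its relative, averaged 2.82 ± 0.464 in AngII and 2.48 ± 0.344 in vehicle, a log2 difference of 0.13 (95% interval -0.11 to 0.36; limma adjusted p = 0.600), and 0.07 without AngII replicate 2 (limma adjusted p = 0.796). Foxo4, a FoxO gene of the regulator list, had means above both, at 12.7 ± 0.810 FPKM in AngII and 13.1 ± 1.7 in vehicle (log2 difference -0.03; limma adjusted p = 0.896).

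Fbxo32 was at 14.9, 9.66, 22, 14.4 and 7.97 FPKM in vehicle and at 19.9, 23.7, 19.5, 9.76 and 17.2 FPKM in AngII, replicates 1 to 5. Only AngII replicate 2 was above the highest vehicle library, and AngII replicate 4 was near the lowest. Its log2 difference was 0.39 (SE 0.25, 95% interval -0.14 to 0.92; limma adjusted p = 0.457), or 0.28 without AngII replicate 2 (limma adjusted p = 0.616). Trim63 ranged from 22.6 to 66.4 FPKM in vehicle, with a median of 48.9, and from 43.0 to 61.3 in AngII, with a median of 46.5, so the AngII values lay inside the vehicle range (log2 difference 0.30, 95% interval -0.22 to 0.83; limma adjusted p = 0.574). Trim54 was at 75.2, 50.0, 63.6, 63.8 and 31.9 FPKM in vehicle and at 88.2, 56.5, 86.3, 64.9 and 53.6 FPKM in AngII. AngII replicates 1 and 3 were above every vehicle library (log2 difference 0.32, 95% interval -0.11 to 0.74; limma adjusted p = 0.447).

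Trim55, which encodes MuRF2, was at 17.1, 10.7, 16.2, 26.6 and 10.5 FPKM in vehicle and at 21.3, 7.26, 23.0, 14.2 and 14.9 FPKM in AngII, a log2 difference of -0.02 (95% interval -0.60 to 0.56; limma adjusted p = 0.982). Its lowest value of all 15 libraries, 7.26 FPKM, came from AngII replicate 2, where the cardiomyocyte sum was lowest and the atrial sum highest. Without that library the difference was 0.22 (limma adjusted p = 0.664). The part of the cell mix in this value was not tested, and in bulk tissue fewer cells of a type and less RNA per cell cannot be told apart.

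**Figure D1:**
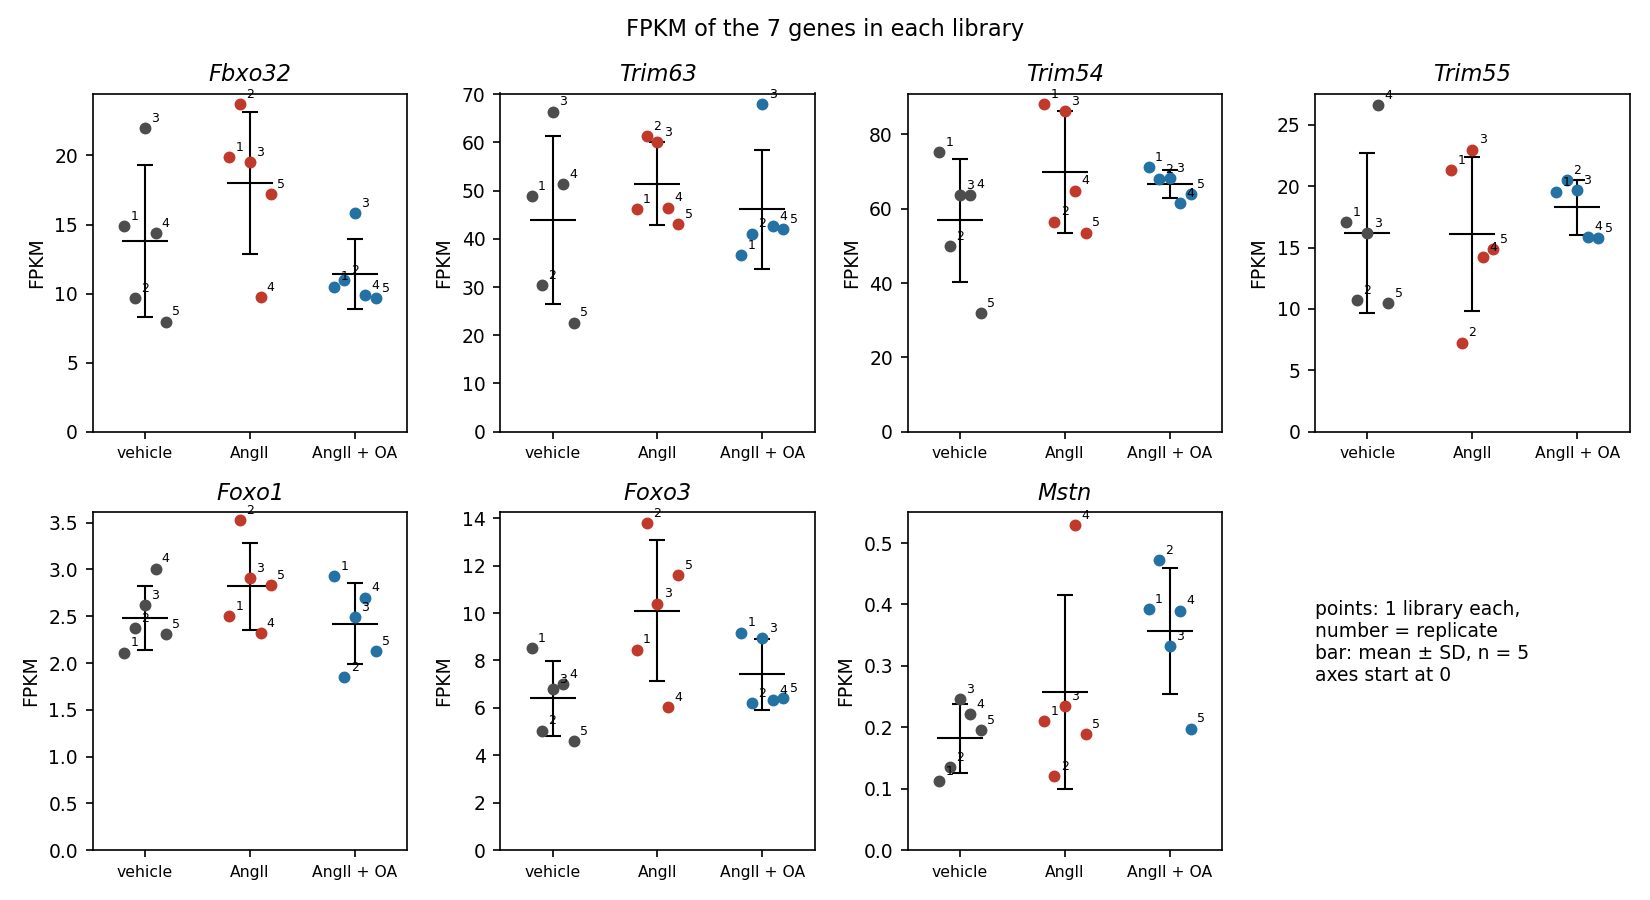
FPKM of each of the 7 genes (vertical axes, from 0) in every library of the vehicle, AngII and AngII plus OA groups; numbers are replicates, and bars are the mean ± SD of 5 libraries. Foxo3 lay highest in AngII replicate 2 at 13.8 FPKM, where Trim55 lay lowest at 7.26, and the groups overlap in every panel.

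The effect of daily OA given besides the angiotensin II pump is addressed by AngII plus OA against AngII. This comparison shares the AngII libraries with the one above, so the estimates of both depend on the same values. None of the 7 genes passed. limma called 0 of 6 members and 0.00% of the 13121 genes, and at an unadjusted p under 0.05 it was 1 of 6 members, Fbxo32, and 6.60% of all genes. All 6 members overlapped between the groups, where 1.27% of genes did not.

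Fbxo32 was at 10.5, 11, 15.8, 9.88 and 9.69 FPKM in AngII plus OA replicates 1 to 5. These values lay between the lowest and the fourth-highest AngII library, apart from replicate 5, which was just under the lowest. The mean was 11.4 ± 2.53 FPKM against 18.0 ± 5.16 in AngII (log2 difference -0.59, SE 0.25, 95% interval -1.12 to -0.06; limma adjusted p = 0.737). Without AngII replicate 2 the AngII mean was 16.6 ± 4.71 (SD, n = 4) and the log2 difference -0.48. Foxo3 was at 9.17, 6.20, 8.94, 6.34 and 6.41 FPKM in AngII plus OA, all inside the AngII range (mean 7.41 ± 1.5; log2 difference -0.37, 95% interval -0.78 to 0.05; limma adjusted p = 0.737), and the difference was -0.25 without AngII replicate 2. Foxo1 had 2 AngII plus OA libraries, at 1.85 and 2.13 FPKM, below every AngII library (log2 difference -0.16, 95% interval -0.39 to 0.08; limma adjusted p = 0.771), and the difference was -0.10 without AngII replicate 2.

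Trim63 divided the AngII plus OA group. Replicates 1, 2, 4 and 5, at 36.7, 41.1, 42.6 and 42.0 FPKM, were below every AngII library, and replicate 3, at 67.9, was above every one. The log2 difference was -0.17 (95% interval -0.70 to 0.35; limma adjusted p = 0.893), and -0.11 without AngII replicate 2. Replicate 3 was also the highest library of its group for Fbxo32. Trim54 stood between 61.5 and 71.2 FPKM and Trim55 between 15.8 and 20.5 in AngII plus OA. Both spanned more in the other groups: the SD of Trim54 was 3.83 in AngII plus OA, 16.4 in AngII and 16.6 in vehicle, and that of Trim55 was 2.24, 6.30 and 6.54. Whether these spreads differ was not tested. Their log2 differences from AngII were -0.04 (95% interval -0.47 to 0.38; limma adjusted p = 0.977) and 0.26 (95% interval -0.32 to 0.83; limma adjusted p = 0.856). Without AngII replicate 2 they were -0.11 and 0.02.

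AngII plus OA against vehicle compares hearts that received both agents with saline hearts. limma called 0 of 6 members and 0.00% of all genes. At an unadjusted p under 0.05 it was 0 of 6 members and 3.36% of genes, and the groups overlapped for 6 of 6 members, where 0.838% of genes did not. The log2 differences were 0.28 for Trim54, 0.24 for Trim55, 0.20 for Foxo3, 0.13 for Trim63, -0.03 for Foxo1 and -0.20 for Fbxo32 (limma adjusted p = 1.0 for each). The 95% interval for Trim54 was -0.15 to 0.70 and that for Fbxo32 -0.73 to 0.33.

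Mstn, which encodes myostatin, was below the level filter and was read from a fit over all 28996 genes above 0 in any library. It stood at 0.113, 0.135, 0.246, 0.221 and 0.196 FPKM in vehicle, at 0.210, 0.12, 0.235, 0.529 and 0.189 FPKM in AngII, and at 0.393, 0.472, 0.332, 0.390 and 0.198 FPKM in AngII plus OA. In 4 of 5 AngII plus OA libraries it was above every vehicle library, and replicate 5 lay inside the vehicle range. The means were 0.357 ± 0.102 in AngII plus OA and 0.182 ± 0.0562 in vehicle (log2 difference 0.20, SE 0.08, 95% interval 0.03 to 0.36; limma adjusted p = 1.0). In that fit 3.36% of genes had an unadjusted p under 0.05 and 0 were called. With a pseudocount of 0.1 in place of 1 the log2 difference was 0.69 (limma adjusted p = 1.0). The values rest on 8 to 17 reads per vehicle library and 14 to 33 per AngII plus OA library. Against vehicle the AngII difference was 0.08 (limma adjusted p = 0.704), and AngII plus OA against AngII gave 0.12 (limma adjusted p = 0.846).

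**Figure D2:**
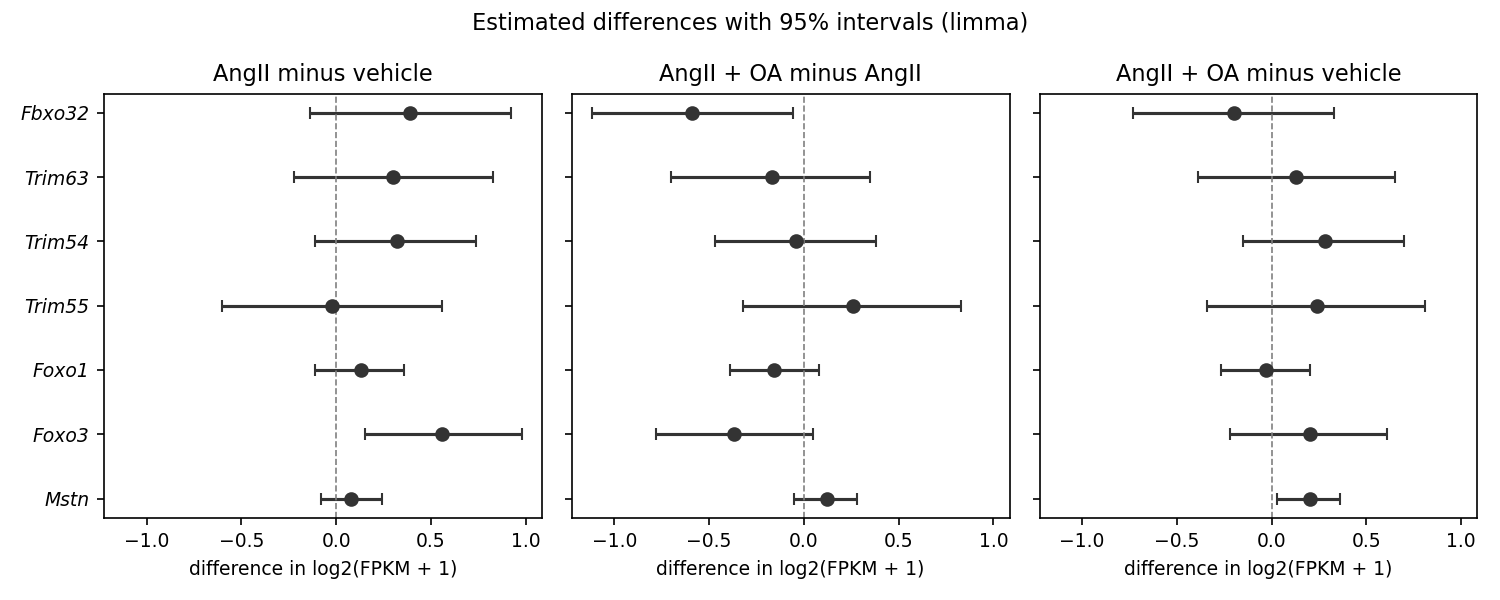
Estimated differences in log2(FPKM + 1) with 95% intervals (horizontal axes) for the 7 genes in the 3 comparisons, from limma over all genes. The interval lies on 1 side of 0 for Foxo3 in AngII minus vehicle (0.15 to 0.98), Fbxo32 in AngII plus OA minus AngII (-1.12 to -0.06) and Mstn in AngII plus OA minus vehicle (0.03 to 0.36), none with an adjusted p under 0.05.

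Much of the variation of these genes lay within the groups. The coefficient of variation in vehicle hearts was 39.8% for Fbxo32, 39.7% for Trim63, 40.4% for Trim55, 29.1% for Trim54, 24.9% for Foxo3 and 13.8% for Foxo1. Vehicle replicate 5 had the lowest Fbxo32, Trim63, Trim54, Trim55 and Foxo3 of its group, and vehicle replicate 2 the second lowest of each. Vehicle replicate 3 had the highest Fbxo32 and Trim63.

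**Figure D3:**
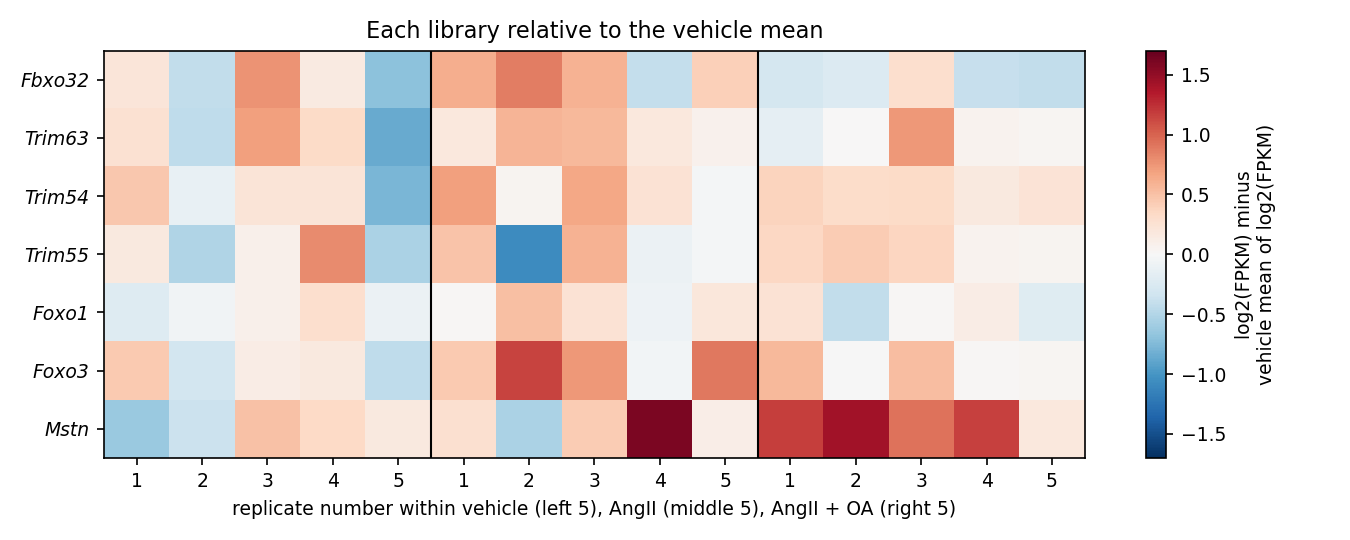
Colour shows log2(FPKM) of each gene (rows) in each library (columns, by group and replicate number) minus the vehicle mean of log2(FPKM). Vehicle replicates 2 and 5 are low for all 4 ligase genes, and AngII replicate 2 is high for Fbxo32 (23.7 FPKM) and Foxo3 (13.8 FPKM) but low for Trim55 (7.26 FPKM).

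Fbxo32 and Trim63, the pair used as markers of muscle atrophy, varied together over the 15 libraries. On log2(FPKM + 1) Pearson's r was 0.78 (permutation p = 0.00036, adjusted over the 21 pairs of members 0.00756) and Spearman's rank correlation was 0.77 (permutation p = 0.0012, adjusted 0.0133). Without vehicle replicate 5 and AngII replicate 2, the libraries farthest from the median of Fbxo32, r was 0.71, and about the group means it was 0.83. Among 5819 other genes with a mean of at least 5 FPKM, 0.756% had a rank correlation with Fbxo32 at least as high. Fbxo32 and Foxo3 had r = 0.76 (permutation p = 0.00118, adjusted 0.0124) and rank correlation = 0.76 (permutation p = 0.00139, adjusted 0.0133), with r = 0.61 without the same libraries, 0.69 without AngII replicate 2 alone and 0.842% of other genes at or above that rank correlation with Fbxo32. Trim63 and Foxo3 had r = 0.61 (permutation p = 0.0148, adjusted 0.0518) and rank correlation = 0.56 (permutation p = 0.0332, adjusted 0.139). Without vehicle replicates 2 and 5 that r was 0.3. With Foxo1, r was 0.54 for Fbxo32 and 0.36 for Trim63 (permutation p = 0.0383 and 0.184, adjusted 0.115 and 0.35). The genes were chosen with earlier results of these data known, and all of them share each library's scaling.

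Trim54 and Trim55 also varied together, with r = 0.67 (permutation p = 0.00852, adjusted 0.0453) and rank correlation = 0.74 (permutation p = 0.0019, adjusted 0.0133). Without vehicle replicate 5 and AngII replicate 1 r was 0.66, and without AngII replicate 2 alone it was 0.77. For Trim55, 7.23% of other genes had a rank correlation at least as high, and for Trim54 1.53%. Trim63 and Trim54 had r = 0.65 but rank correlation = 0.32 (permutation p = 0.0121 and 0.249, adjusted 0.051 and 0.398), and r = 0.04 without vehicle replicates 2 and 5, so this relation rests on those libraries. With them kept, r was 0.72 without AngII replicate 2 and 0.62 about the group means. Foxo1 and Foxo3 had r = 0.65 (permutation p = 0.00862, adjusted 0.0453) and rank correlation = 0.64 (permutation p = 0.0127, adjusted 0.0665), with r = 0.48 without AngII replicate 2 and AngII plus OA replicate 2. None of the 6 pairs with Mstn had an adjusted p under 0.05. Leaving out AngII replicate 2 alone raised r for Trim55 with Trim63 (0.30 to 0.66), Fbxo32 (0.10 to 0.55) and Foxo3 (0.02 to 0.57). For Trim54, r rose with Fbxo32 (0.46 to 0.58) and Foxo3 (0.44 to 0.61). It fell for Fbxo32 and Trim63 with each FoxO member, for Foxo1 with Foxo3 (0.65 to 0.49) and for Fbxo32 with Trim63 (0.78 to 0.76). So the division of the ligase genes into pairs depended on that library.

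**Figure D4:**
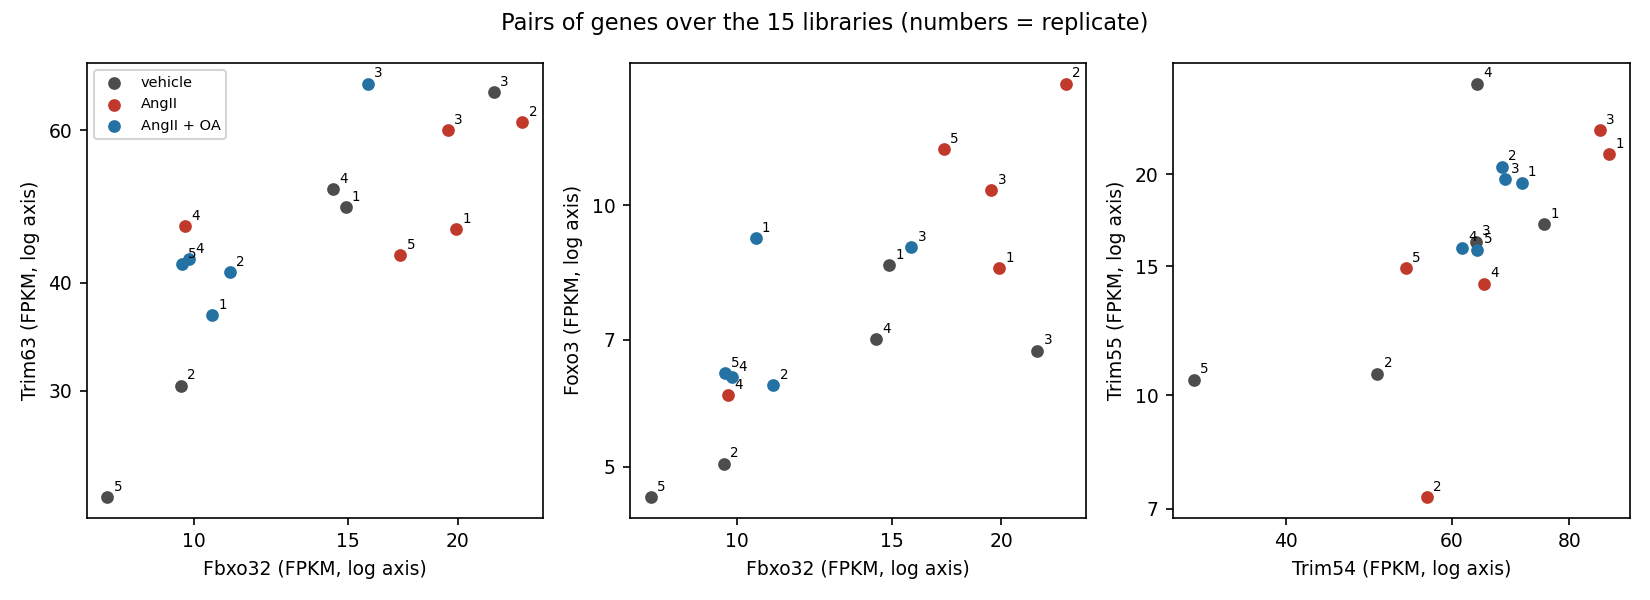
FPKM of Trim63 and Foxo3 against Fbxo32, and of Trim55 against Trim54, on log axes, 1 point per library coloured by group with its replicate number. The rank correlation over the 15 libraries is 0.77, 0.76 and 0.74, and AngII replicate 2 has the highest Foxo3 (13.8 FPKM) and the lowest Trim55 (7.26 FPKM).

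The genes most like each member were sought by Spearman's rank correlation over the 15 libraries, as a description. For Fbxo32 it was Pdk4 (rank correlation 0.96), an inhibitor of pyruvate oxidation and itself a FoxO target, which ran from 19.0 to 245 FPKM, followed by the kinase gene Sik3 (0.91). For Foxo3 they were Tecrl (0.92) and Pik3r1 (0.92), the regulatory subunit of PI3-kinase. Trim55 was matched by the thin-filament capping gene Tmod1 (0.95), at 4.18 to 28.7 FPKM, and by the muscle gene Mlip (0.95). Trim54 was matched by Filip1 (0.90) and the ubiquitin-conjugating enzyme Ube2g1 (0.88), Trim63 by Mospd1 and Slc25a46 (0.88 each), Foxo1 by Epc2 (0.87) and Timp2 (0.86), and Mstn by Camk2d (0.84) and Hnrnpab (0.82). Leaving out AngII replicate 2 gave 0.96 for Pdk4 and 0.94 for Tmod1.

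Genes around the members were described by lists, each beside the 13121 genes tested. In AngII against vehicle the median log2 difference of all genes was 0.07, 65.7% were higher by estimate, 16.6% had an unadjusted p under 0.05 and 1.50% were called, 166 genes higher and 31 lower. The 6 macrophage markers summed to 188 to 314 FPKM in AngII and 131 to 175 in vehicle, the 6 fibroblast markers to 680 to 1130 and 354 to 675, and the 7 endothelial markers to 229 to 304 and 196 to 267. The part of these cells in the list values was not tested. Of 22 FoxO target genes, 0 were called by limma, 20 were higher by estimate and 13 had an unadjusted p under 0.05. Their median was 0.39, or 0.28 without AngII replicate 2. Under the 3 rescalings of the libraries (quantile normalization, a shared median, and FPKM without mitochondrial genes) it was 0.27 to 0.31. For all genes the median was 0.1 without AngII replicate 2, and -0.01, -0.01 and 0.01 under the rescalings in that order. Under them 6346 of 13121, 6269 of 13121 and 6796 of 13110 genes were higher by estimate. Txnip, which binds thioredoxin, was at 235 ± 50.4 FPKM in AngII and 149 ± 58.3 in vehicle (SD, n = 5; log2 difference 0.71; limma adjusted p = 0.193), and the mitochondrial superoxide dismutase Sod2 at 98.1 ± 24.5 and 114 ± 13.7 (log2 difference -0.25, or -0.10 without AngII replicate 2; limma adjusted p = 0.455). Pdk4, the gene most like Fbxo32, was at 158 ± 66.1 and 82.8 ± 66.6 FPKM (log2 difference 1.29; limma adjusted p = 0.271).

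Of 20 tested FoxO regulators, 15 were higher by estimate and 6 had an unadjusted p under 0.05. Their median was 0.14, or 0.05 to 0.07 under the 3 rescalings, beside -0.01 to 0.01 for all genes. The kinase gene Akt1, whose product phosphorylates FoxO factors, was at 31.2 ± 6.15 FPKM in AngII and 27.4 ± 4.33 in vehicle (SD, n = 5; log2 difference 0.17; limma adjusted p = 0.598). The related kinase gene Sgk1 was at 50.4 ± 22.1 and 36.1 ± 12.4 (log2 difference 0.41; limma adjusted p = 0.509). Most of the 6 genes with an unadjusted p under 0.05 were higher in AngII, but Akt2 was lower. It was at 13.8 ± 1.9 FPKM in AngII and 18.3 ± 2.14 in vehicle (log2 difference -0.38; limma adjusted p = 0.132). Irs1 and Foxo6 were under the level filter.

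Of 19 tested genes of myostatin signalling, 1 rose and 0 fell, 17 were higher by estimate and 6 had an unadjusted p under 0.05. Their median was 0.25, or 0.15 to 0.18 under the 3 rescalings, beside -0.01 to 0.01 for all genes. Fstl1, a secreted follistatin-like protein, rose from 24.4 ± 3.90 to 56.1 ± 9.84 FPKM (SD, n = 5; log2 difference 1.17, SE 0.18; limma adjusted p = 0.0114) and kept its call under 20 of 20 alternatives. The fibroblast sums given above did not overlap between these groups either, and their part in this rise was not tested. The 2 genes with lower estimates were Fst and Smad3, at log2 differences of -0.09 and -0.17 (limma adjusted p = 0.909 and 0.660). Among those with higher estimates, the activin subunit gene Inhbb, the receptor gene Tgfbr1 and Ltbp3 had 0.74, 0.55 and 0.51 (limma adjusted p = 0.156, 0.132 and 0.132). Fstl3, Inhba, Tll1 and Acvr2b were under the filter.

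None of the genes of the machinery that works with the ligases passed. Of 16 partners (ubiquitin, its activating and conjugating enzymes and SCF subunits) 0 were called and 13 were higher by estimate, with a median of 0.11. An unadjusted p under 0.05 was found for 2 of 16. After quantile normalization 8 were higher and the median was -0.01, beside -0.01 for all genes. Under both other rescalings the partner median was 0.03, beside -0.01 and 0.01. The ubiquitin gene Ubb was at 204 ± 49.2 FPKM in AngII and 179 ± 28.4 in vehicle (log2 difference 0.16, or 0.08 without AngII replicate 2), and Rps27a, which also encodes ubiquitin, at 170 ± 37.4 and 139 ± 37.7. Of 31 proteasome subunits 0 were called, 31 were higher by estimate and 10 had an unadjusted p under 0.05, with a median of 0.20. After quantile normalization 22 were higher (median 0.04, beside -0.01 for all genes). It was 28 with each library shifted to a shared median or rescaled without mitochondrial genes (median 0.11 in both, beside -0.01 and 0.01). Psmb1 was at 148 ± 12.9 against 134 ± 14.9 FPKM and Psma2 at 111 ± 10.8 against 99.4 ± 6.30. Of 24 other muscle ubiquitin ligases 0 were called and 1 had an unadjusted p under 0.05. Their median of 0.04 turned negative under the 3 rescalings (-0.03 to -0.05, beside -0.01 to 0.01 for all genes). Without AngII replicate 2 it was 0.08, beside 0.1 for all genes. Asb2 was at 84.5 ± 29.9 against 102 ± 12.5 FPKM (log2 difference -0.37, or -0.07 without AngII replicate 2). Trim72 was at 94.5 ± 38.5 against 68.3 ± 20.4 (log2 difference 0.37, or 0.73 without AngII replicate 2; limma adjusted p = 0.600 and 0.0857).

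Of 20 sarcomere substrates and partners, 1 rose and 0 fell, and 4 had an unadjusted p under 0.05. Their median was -0.04, and -0.02, -0.12 and -0.13 under quantile normalization, a shared median and FPKM without mitochondrial genes. Without AngII replicate 2 it was 0.19, beside 0.1 for all genes. Des, the intermediate filament desmin, rose from 411 ± 57.0 to 657 ± 71.5 FPKM (SD, n = 5; log2 difference 0.68, SE 0.15; limma adjusted p = 0.0335). Its call was kept under 7 of 20 alternatives and lost under 13, with adjusted p up to 0.104. It was lost without vehicle replicate 3, 4 or 5 or AngII replicate 1, 4 or 5 (limma adjusted p = 0.0647, 0.0797, 0.0940, 0.0810, 0.0722 and 0.0936) and under each of the 3 rescalings, with no filter at either pseudocount, in a fit of only these groups and with the replicate block (0.0649). Of 12 glucocorticoid-responsive genes 0 were called and 4 had an unadjusted p under 0.05. Their median was 0.62, or 0.36 without AngII replicate 2 and 0.17 with array weights and a robust spread. The metal-binding protein gene Mt1 was at 809 ± 696 FPKM in AngII and 235 ± 131 in vehicle (log2 difference 1.63; limma adjusted p = 0.0908) and the mTOR inhibitor gene Ddit4 at 91.2 ± 41.0 and 36.3 ± 19.1 (log2 difference 1.35; limma adjusted p = 0.129).

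**Figure D5:**
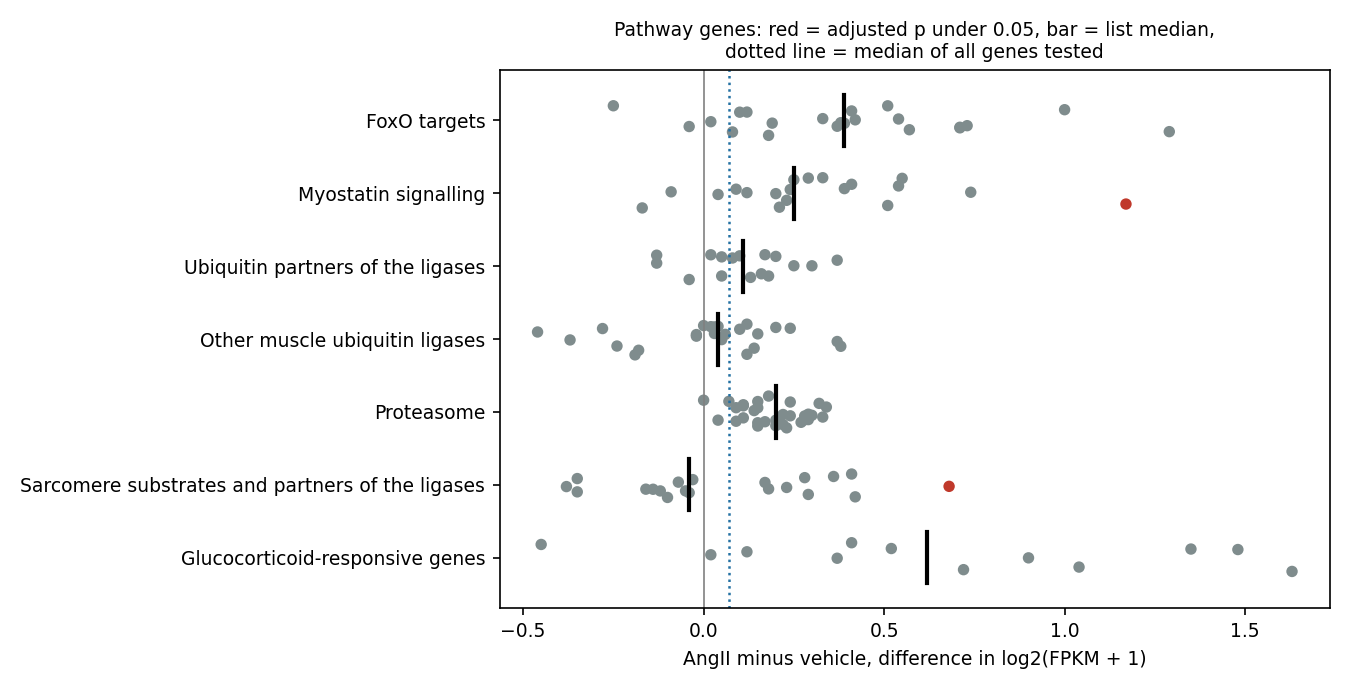
AngII minus vehicle differences in log2(FPKM + 1) (horizontal axis) of every tested gene of 7 lists (rows, without the FoxO regulators); bars are list medians, red points have an adjusted p under 0.05, and the dotted line is the median of all genes, 0.07. Red points are Fstl1 and Des, and the list medians run from -0.04 to 0.62.

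In AngII plus OA against AngII, 0 genes of any list were called, the median of all genes was -0.05 and 36.6% were higher by estimate. The median was -0.26 for FoxO targets, with 4 of 22 at an unadjusted p under 0.05, -0.11 for FoxO regulators (2 of 20), -0.20 for myostatin signalling (2 of 19) and -0.48 for glucocorticoid-responsive genes (0 of 12). It was -0.05 for the proteasome (1 of 31), -0.07 for ligase partners (0 of 16), 0.01 for other muscle ligases (3 of 24) and 0.09 for sarcomere genes (3 of 20). Without AngII replicate 2 these medians were -0.16 for FoxO targets, -0.13 for FoxO regulators, -0.18 for myostatin signalling, -0.28 for glucocorticoid-responsive genes, -0.05 for the proteasome, -0.02 for ligase partners, -0.05 for other muscle ligases and -0.05 for sarcomere genes, beside -0.07 for all genes. After quantile normalization the proteasome and partner medians were 0.03 and 0.01, and that of FoxO targets was -0.18, beside 0.0 for all genes. Fstl1 was at 35.5 ± 9.12 FPKM in AngII plus OA, below every AngII library (log2 difference -0.67, limma adjusted p = 0.706). This difference did not pass, and it rests on the AngII libraries in which the gene was described above. Txnip was at 174 ± 51.2 FPKM (log2 difference -0.46; limma adjusted p = 0.751), and Sgk1, which stands in both the regulator and the glucocorticoid list, at 33.0 ± 9.13 against 50.4 ± 22.1 in AngII (log2 difference -0.53; limma adjusted p = 0.738). The ventricular light chain gene Myl2 was at 6680 ± 704 against 4980 ± 1410 FPKM (log2 difference 0.48; limma adjusted p = 0.737). In AngII plus OA against vehicle 0 genes of any list were called. The list medians lay between 0.02 and 0.15, beside 0.02 for all genes, and 31 of 31 proteasome subunits and 19 of 20 sarcomere genes were higher by estimate, against 26 and 15 with FPKM rescaled without mitochondrial genes. Under that rescaling the medians of the FoxO regulators, myostatin signalling, ligase partners and other muscle ligases were negative, at -0.06, -0.04, -0.03 and -0.06, beside -0.05 for all genes.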

How the data were processed

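Poly(A)-selected ventricle RNA was sequenced on an Illumina instrument, per the labels' protocols. The deposited table gives FPKM as the authors computed them. Per the submitters' processing notes, the aligner was HISAT2 2.0.4 and the build is named mm8. For the read counter, annotation and strand setting, nothing was given in the sources used here. GENCODE M21, built on another genome, served for symbols (36464 of 36653 identifiers) and exon lengths. With those lengths 86.2% of genes above 0 gave whole reads within 0.02, which supplied read numbers as a measure of depth. The smallest chi-square per degree of freedom between replicates was 25.1, so each library counted as 1. P-values measure the spread between these libraries.

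The main test was limma (3.58.1, R 4.3.3) with a mean-dependent prior spread, run on log2(FPKM + 1) of the 13121 genes averaging at least 0.5 FPKM, in 1 fit of all 15 libraries with group as the term. Tests were 2-sided with Benjamini-Hochberg adjustment over all genes, and the method was tested on simulated data. Correlations used 100000 permutations. The members and lists were chosen with earlier results of these data known. All members were named, and of each list up to 4 called genes in a comparison, otherwise the 2 most abundant. Pdk4, Fst, Smad3, Inhbb, Tgfbr1, Ltbp3 and Foxo4, and Akt1, Akt2 and Sgk1 in AngII against vehicle, were named after their values had been seen. Of the FoxO regulators, 1 gene is not reported here. Names for genes most like a member came from genes with a mean of at least 5 FPKM.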

Additional observations from a re-analysis of the deposited data

Results flagged for a closer look

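Among 63 groups of 5 libraries checked, 5 held a library whose gap to its nearest neighbour took most of the group's range. The cut-off used gives about 1 in 20 groups for independent, normally distributed values. The groups checked share libraries over genes that vary together, so that rate is not a measure of chance here. In AngII plus OA replicate 3, Trim63 was at 67.9 FPKM, with the next library at 42.6, and Fbxo32 was at 15.8 FPKM, with the next at 11. Mstn was at 0.529 FPKM in AngII replicate 4, from 35 reads, with the next at 0.235. Des was at 918 FPKM in AngII plus OA replicate 2, with the next at 595. Mt1 was at 2030 FPKM in AngII replicate 2, whose atrial marker sum was highest, and the next library was at 728.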

How the results depend on the processing

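None of the members was called under any alternative, in 366 results, of which 353 kept the sign of the reported difference. Of the other 13, leaving out 1 library gave ranges of -0.17 to 0.22 for Trim55 in AngII against vehicle, -0.13 to 0.05 for Trim54 in AngII plus OA against AngII, and -0.08 to 0.30 for Trim63 and -0.08 to 0.03 for Foxo1 in AngII plus OA against vehicle. With array weights and a robust spread, added after the data were seen, Trim55 had 0.28 in AngII against vehicle and -0.03 in AngII plus OA against AngII. In the latter Trim54 had 0.03 after quantile normalization and 0.02 with a shared median. The cause was not tested. The adjusted p of Foxo3 in AngII against vehicle ran from 0.0907 to 0.325 without 1 library and from 0.12 to 0.357 otherwise. Keeping the sign did not mean keeping the size. Under the alternatives that left out no library, its log2 difference there ran from 0.40 to 0.63. In that comparison it was 0.25 to 0.42 for Fbxo32, 0.14 to 0.31 for Trim63, 0.16 to 0.45 for Trim54 and 0.04 to 0.17 for Foxo1.

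In AngII against vehicle the 197 genes called became 72 with no filter, 86 with no filter and a pseudocount of 0.1, 109 after quantile normalization (69 higher and 40 lower), 114 with FPKM rescaled without mitochondrially encoded genes (77 and 37), 160 with a shared median (103 and 57), 70 in a fit of only the groups compared and 38 with the replicate number as a block. Leaving out 1 library gave 49 to 425. In AngII plus OA against AngII it gave 0 to 1 gene, called without AngII replicate 3. The labels state no batch. Of same-numbered pairs of libraries, 6 of 15 correlated over 0.1, and 4 of 15 libraries correlated best with their own number. Pairs of replicate 3 ran from 0.211 to 0.435 and pairs of replicate 4 from -0.35 to 0.336. These counts do not settle whether same-numbered libraries share more than a number. The mitochondrial share differed by -7.74 to -4.29 points in AngII against vehicle, -0.35 to 3.09 in AngII plus OA against AngII and -5.79 to -3.69 in AngII plus OA against vehicle when 1 library was left out; the first passed without AngII replicate 2 (adjusted exact permutation p = 0.0238) and the last without AngII plus OA replicate 3 (0.0238).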
